A study of Rattus norvegicus with 6 samples.

Results

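miR-9a-5p, miR-128-3p and miR-129-5p are 3 mature miRNAs best known from neurons, and they were measured here in vesicles of cultured rat bone marrow stromal cells. They were chosen by exact name in the raw count table (rno-miR-9a-5p, rno-miR-128-3p and rno-miR-129-5p) and make up 3 of the 311 distinct mature sequences listed there. Small RNA came from extracellular vesicles, the membrane particles that cells shed, of bone marrow mesenchymal stem cells (BMSCs). The marrow was flushed from tibias and femurs of male SD rats aged 4 weeks. The hypoxia group was kept at 1% O2 and the normoxia group at 21% O2, both with 5% CO2, in medium with 10% fetal bovine serum, and each had 3 libraries. Whether the 3 libraries of a condition stem from different rats or dishes is not stated, and p-values therefore reflect library-to-library spread that may be technical.

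A miRNA guides a silencing complex to messenger RNAs that pair with its seed, the bases 2 to 8 from its 5′ end. miR-9 is made in neural progenitors and neurons, where in mouse it restrains Rest and Nr2e1, regulators that hold back neuronal differentiation. miR-128 is rich in brain and lowers neuronal excitability in mouse, and miR-129-5p represses the mRNA of the potassium channel Kv1.1 in rat neurons. None of them is a standard marker of marrow stromal cells.

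The sequences are shown because their seeds differ and because each is cut from several precursors. Capitals mark the seed, and the letters in the count table equalled those of RefSeq (build GRCr8) at every locus.
miR-9a-5p: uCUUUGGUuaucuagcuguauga
miR-128-3p: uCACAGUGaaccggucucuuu
miR-129-5p: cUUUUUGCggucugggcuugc
The lengths were 23, 21 and 21 bases and the GC contents 34.8%, 47.6% and 57.1%, against a median of 47.6% over the 197 annotated sequences. By edit distance the nearest other listed sequence was 9 changes from miR-9a-5p, 7 from miR-128-3p and 9 from miR-129-5p. No other listed sequence had the same bases 2 to 8 as any of them.

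miR-9a-5p occupied 3 rows of the table, 1 for each precursor, with identical counts. Its GRCr8 loci are chr2:175974986-175975008 (Mir9-1), chr2:15933307-15933329 (Mir9-2) and chr1:142849415-142849437 (Mir9-3), all on the plus strand. Mir9-2 and Mir9-3 lie within the spans of Mir9-2hg and Mir9-3hg. miR-128-3p occupied 2 rows, for Mir128-1 at chr13:42251933-42251953 (plus strand) and Mir128-2 at chr8:120963807-120963827 (minus strand). These lie within the spans of the protein-coding genes R3hdm1 and Arpp21, the latter a phosphoprotein known from brain. miR-129-5p occupied 2 rows, for Mir129-1 at chr4:58589716-58589736 (plus strand) and Mir129-2 at chr3:100657448-100657468 (minus strand). The gene table used gives spans only, so exons and introns are not stated. The rows were merged, because 1 mature sequence cannot be assigned to a precursor. The hairpins of miR-128-3p, with the mature strand in capitals, show how the same 21 bases sit in different surroundings.
Mir128-1: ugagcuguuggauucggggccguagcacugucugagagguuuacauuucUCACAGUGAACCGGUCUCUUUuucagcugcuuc
Mir128-2: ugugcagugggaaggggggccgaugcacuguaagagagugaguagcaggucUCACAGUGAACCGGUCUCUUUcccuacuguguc

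Only 1 strand of each precursor family was listed. RefSeq names 7 further mature strands of the miR-9a, miR-9b, miR-128 and miR-129 precursors, and 0 of the 7 had a count in any library. Among them were miR-9a-3p, the other arm of the miR-9a hairpin, and the different 5p arms of Mir128-1 and Mir128-2, which could have told those precursors apart.
miR-9a-3p: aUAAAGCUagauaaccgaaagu
miR-128-1-5p: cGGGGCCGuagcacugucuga
miR-128-2-5p: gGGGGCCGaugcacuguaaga
Over the whole table, 42 of 187 annotated precursors had both strands listed. The smallest listed count was 7 in normoxia replicate 2 and 2 in every other library. Smaller values may have been left out of the table, and no upper limit is given for an unlisted strand.

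Total counts ran from 106954 to 248542 per library, and 85 sequences were listed in hypoxia replicate 1 against 129 to 183 in the others. Beside the labelled cell type were set 15 miRNAs known from mesenchymal stromal cells. Of these 14 were listed, all but miR-10b-5p, and together they held 35.5 to 43.9% of counts under hypoxia and 32.5 to 46.6% under normoxia. miR-21-5p alone held 20.4 to 34.6% of counts, most of the list's share in each library. The share thus rests mainly on 1 miRNA and cannot by itself settle the cell type. miR-145-5p was listed in 4 libraries and miR-222-3p in 2. Hypoxia replicate 1 stood apart from the rest. In it miR-320-3p, a miRNA made without Drosha, took 15.4% of counts, against 0.891 to 2.92% elsewhere, and results that rest on this library are given with and without it.

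Together the 3 miRNAs held 0.425%, 0.175% and 0.0877% of counts in hypoxia replicates 1 to 3 and 0.308%, 0.189% and 0.122% in normoxia replicates 1 to 3. The means were 0.229 ± 0.175% and 0.206 ± 0.0938% (SD, n = 3 each), so the groups differed by less than the spread within either. Without hypoxia replicate 1 the hypoxia mean was 0.131%, below that of normoxia. They ranked 32 (miR-128-3p), 64 (miR-9a-5p) and 95 (miR-129-5p) in mean level among the 100 annotated miRNAs tested. The mean of miR-9a-5p rests largely on hypoxia replicate 1, where its share was 0.198%, against 0.0327% or less elsewhere. Its rank without that library is not given. Fewer vesicles with a miRNA and fewer copies in each vesicle cannot be told apart in such pooled RNA. Levels below are TMM-scaled CPM, the counts set relative to a library total adjusted by edgeR's TMM factors, unless called shares or counts. A read covers a whole mature strand, so no length correction was needed between miRNAs.

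**Figure D1:**
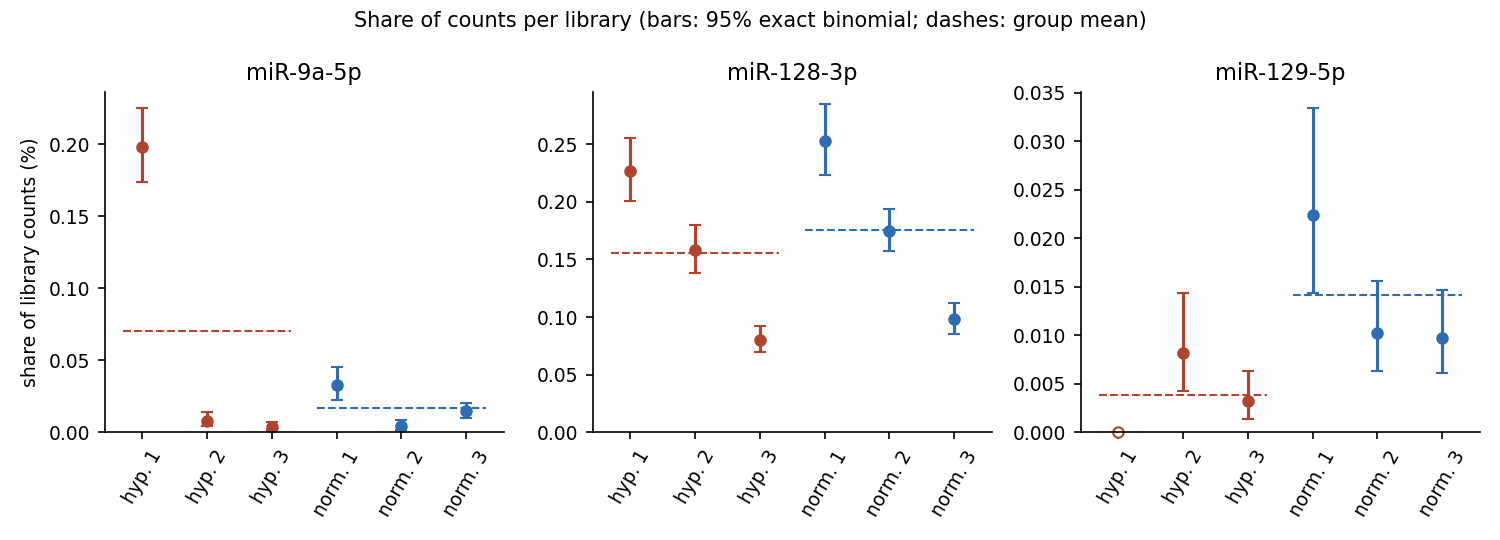
Share of library counts (%, separate scale in each panel) of miR-9a-5p, miR-128-3p and miR-129-5p in the 3 hypoxia (red) and 3 normoxia (blue) libraries, with 95% exact binomial intervals and group means as dashes; the open point marks a library with no listed count. miR-9a-5p stood at 0.198% in hypoxia replicate 1 and at 0.0327% or less elsewhere, miR-128-3p overlapped between the groups, and miR-129-5p was lower in each hypoxia library than in any normoxia library. Scaled by library totals, 5 of 107 tested sequences were lower in this way and 3 were higher.

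miR-128-3p was the most abundant of them. It had 269, 231 and 200 counts in hypoxia replicates 1 to 3 and 270, 359 and 223 in normoxia replicates 1 to 3. Every library listed it, and the groups overlapped. The highest raw count was 1.79 times the lowest, the third smallest such ratio among the 56 sequences listed in all 6 libraries, whose median was 4.27, while the total counts themselves spanned 2.32 times. After TMM scaling the ratio was 3.24, rank 28 from the largest and at the median of 3.24. Without hypoxia replicate 1 it was again 3.24, rank 18, against a median of 2.25. As shares, its values were highest in the 2 libraries with the lowest totals. The share was 0.252% (95% exact binomial interval 0.223 to 0.284%) in normoxia replicate 1 and 0.227% (0.200 to 0.255%) in hypoxia replicate 1. It was lowest at 0.0805% (0.0697 to 0.0924%) in hypoxia replicate 3, the library with the highest total, and 0.0982% (0.0857 to 0.112%) in normoxia replicate 3. Hypoxia replicate 2 and normoxia replicate 2 lay between, at 0.158% and 0.175%. These bounds take in counting error alone. Whether PCR copies were told apart by molecular identifiers is not stated. After TMM scaling its level was 1820, 1708 and 806 CPM under hypoxia and 2615, 1758 and 1084 CPM under normoxia. That is 1445 ± 556 CPM against 1819 ± 767 CPM (SD, n = 3 each).

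miR-9a-5p was set by a single library. It had 235, 12 and 10 counts in hypoxia replicates 1 to 3 and 35, 9 and 33 in normoxia replicates 1 to 3. Hypoxia replicate 1 thus held 70.4% of all its 334 counts, and the raw counts of the other 2 hypoxia libraries lay within the 9 to 35 of normoxia. Its share was 0.198% (95% exact binomial interval 0.174 to 0.225%) in hypoxia replicate 1. Normoxia replicate 1 followed with 0.0327% (0.0228 to 0.0455%), and the lowest was hypoxia replicate 3 with 0.00402% (0.00193 to 0.00740%). Within its library it ranked 36 by count in hypoxia replicate 1 and between 74 and 154 in the others. The level was 1590, 88.7 and 40.3 CPM under hypoxia and 339, 44.1 and 160 CPM under normoxia, or 573 ± 881 against 181 ± 149 CPM (SD, n = 3 each). The highest library was 39.4 times the lowest. This was first in rank among the 56 sequences listed in all libraries, before miR-181b-5p with 14.6, and the median ratio was 3.24. Sequences unlisted in any library have no such ratio and were not ranked. For example, miR-127-3p and miR-185-5p each ran from 0 to 2551 CPM, highest in hypoxia replicate 1, so a wide spread was not particular to miR-9a-5p. With hypoxia replicate 1 left out, miR-9a-5p had a ratio of 8.41, the second in rank, against a median of 2.25.

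**Figure D2:**
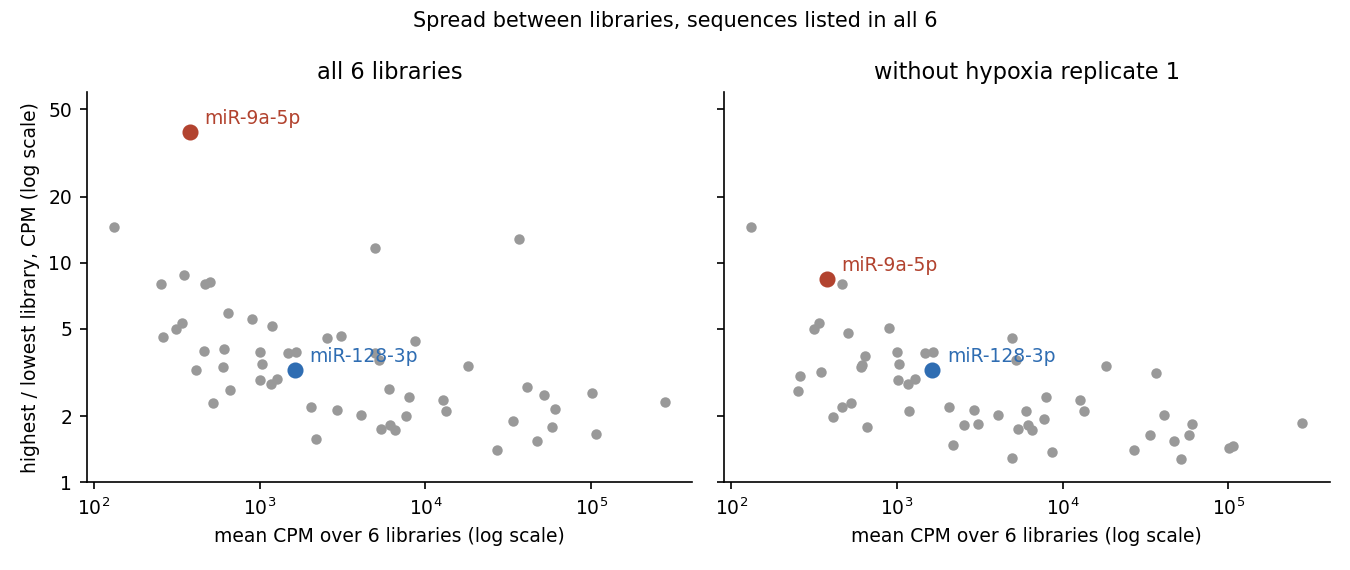
Highest over lowest library in TMM-scaled CPM (log scale) against mean CPM (log scale) for the 56 sequences listed in all 6 libraries, with all libraries (left) and without hypoxia replicate 1 (right). Among these 56, miR-9a-5p stood highest at 39.4 and moved to 8.41 without that library, while miR-128-3p stayed at 3.24 in both panels. Sequences unlisted in any library have no ratio and are not shown.

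Other values moved with miR-9a-5p in hypoxia replicate 1, and not only muscle miRNAs. Outside the lists, miR-127-3p stood at 2551 CPM there and 0 to 219 elsewhere, and miR-185-5p at 2551 CPM there and 0 to 599 elsewhere. Many others went the other way, such as miR-378a-3p with 0 CPM there and 248 to 717 elsewhere. The striated muscle list had 4 of 8 members listed and held 1.89% of the counts of hypoxia replicate 1, against 0.147 to 0.506% in the other libraries. Most of this was miR-1b, with 1970 counts there and 154 to 1066 elsewhere. miR-206-3p had 275 counts there and 0 to 61 elsewhere. Of the other listed members, miR-1-3p had 3 counts there and 0 to 19 elsewhere, and miR-499-5p 0 there and 0 to 39 elsewhere. miR-133a-3p, a defining muscle miRNA, had no listed count in any library. The liver and serum list, with 4 of 5 members listed, held 0.787% there, within the 0.549 to 1.04% of the others. The blood cell list, with 4 of 8 listed, had no count there and 0.00548 to 0.0299% elsewhere, and miR-223-3p and both strands of miR-142 had none in any library. The part of these in the level of miR-9a-5p was not tested.

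miR-129-5p was the scarcest. It had no listed count in hypoxia replicate 1, then 12 and 8 counts in hypoxia replicates 2 and 3, and 24, 21 and 22 in normoxia replicates 1 to 3. All hypoxia libraries lay below all normoxia libraries, as in 8 of the 107 tested sequences (7.48%) by TMM-scaled CPM. With upper-quartile factors, an alternative scaling, the groups overlapped. The share of miR-129-5p was 0.00822% (95% exact binomial interval 0.00425 to 0.0144%) in hypoxia replicate 2 and 0.00322% (0.00139 to 0.00634%) in hypoxia replicate 3. Under normoxia it was 0.0224% (0.0144 to 0.0334%), 0.0102% (0.00633 to 0.0156%) and 0.00969% (0.00607 to 0.0147%). The intervals of normoxia replicates 2 and 3 overlapped those of hypoxia replicates 2 and 3. At the lowest and highest share of the other libraries, hypoxia replicate 1 would have held 3.82 to 26.6 counts. The level was 0, 88.7 and 32.3 CPM under hypoxia and 232, 103 and 107 CPM under normoxia, or 40.3 ± 44.9 against 147 ± 73.7 CPM (SD, n = 3 each).

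The comparison between 1% and 21% O2 was made in edgeR's quasi-likelihood test over all 107 sequences that passed the filter on low counts, among them all 3 miRNAs. None of the 3 passed at a Benjamini-Hochberg adjusted p under 0.05, where the background was 0% of 107 (0 sequences). At an unadjusted p under 0.05 it was 0.935% (1 sequence), and again none of the 3; DESeq2 and limma-voom gave 1 and 4 sequences at that level and none after adjustment. Fold changes are given as log2 of hypoxia over normoxia. For miR-128-3p the value was -0.33 (SE 0.56, 95% interval -1.54 to 0.87, edgeR adjusted p 0.998). For miR-9a-5p it was 1.66 (SE 1.72, interval -2.05 to 5.38, edgeR adjusted p 0.998), and without hypoxia replicate 1 it was -1.24 (SE 1.74). For miR-129-5p it was -1.85 (SE 2.10, interval -6.37 to 2.66, edgeR adjusted p 0.998), and -1.03 (SE 1.91) without hypoxia replicate 1. The median over all 107 sequences was -0.14, with a median SE of 1.44. The intervals of miR-9a-5p and miR-129-5p span changes of several fold in both directions, so a difference of that size was not detectable at this depth and spread.

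The lack of overlap of miR-129-5p between the groups was not particular to it. By TMM-scaled CPM 8 of 107 sequences (7.48%) had all hypoxia values below all normoxia values and 0 had the opposite. Of the 8, 6 had no listed count in hypoxia replicate 1, miR-129-5p included. Such absence was common there, as that library listed only 85 of the 311 sequences. The share unlisted there among the 107 tested is not given. The split depended on the scaling, with 6 lower and 1 higher with RLE factors, 5 and 3 for library totals only, 5 and 2 for upper-quartile factors, and 4 and 3 in the authors' normalized table. The order of the groups for miR-129-5p held with RLE factors, with library totals only and in the authors' normalized table, and the groups overlapped with upper-quartile factors. miR-9a-5p and miR-128-3p overlapped between the groups under each of these scalings. In the authors' normalized table miR-129-5p stood at 0, 22 and 8 for hypoxia and 56, 24 and 26 for normoxia. miR-9a-5p stood at 472, 23 and 10 against 81, 10 and 39 there, and miR-128-3p at 539, 438 and 207 against 630, 417 and 261.

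**Figure D3:**
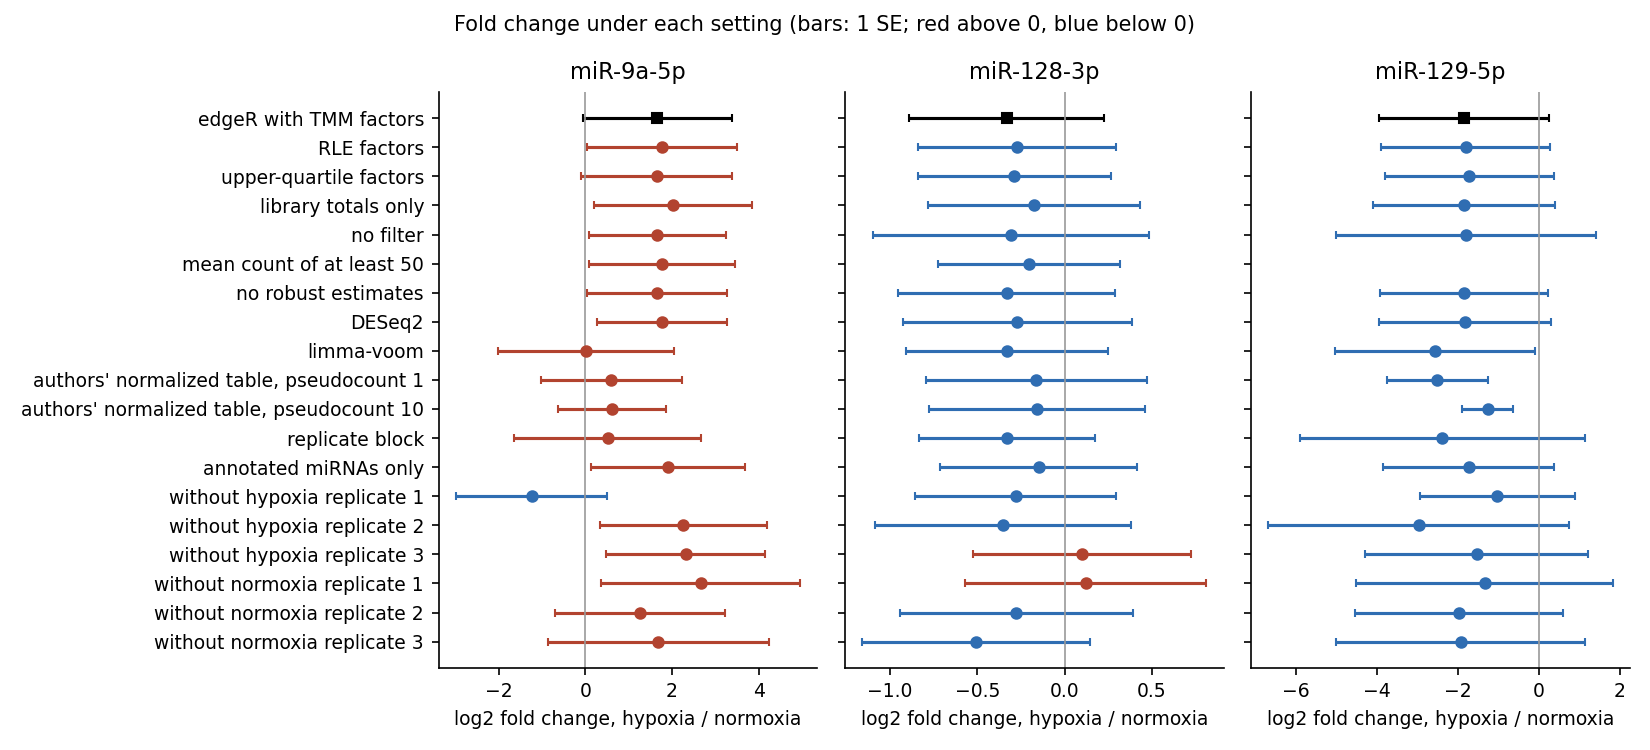
Log2 fold change, hypoxia over normoxia, of the 3 miRNAs under edgeR with TMM factors (black square) and under each alternative (circles, red above 0 and blue below 0), with bars of 1 SE and a separate scale in each panel. miR-9a-5p was above 0 in 17 of 18 alternatives and at -1.24 without hypoxia replicate 1, miR-128-3p was below 0 in 16 of 18, and miR-129-5p was below 0 in 17 of 17.

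Over all 6 libraries the 3 miRNAs did not share 1 pattern. For the pairs with miR-129-5p this rested largely on hypoxia replicate 1, where miR-129-5p had no listed count. As a description over 6 libraries that share depth and scaling, Pearson's r of log2 CPM was 0.48 between miR-9a-5p and miR-128-3p, -0.48 between miR-9a-5p and miR-129-5p and 0.26 between miR-128-3p and miR-129-5p. Without hypoxia replicate 1 the values over 5 libraries were 0.58, 0.83 and 0.88, so the pair of miR-9a-5p and miR-128-3p changed little. Among those 5 libraries all 3 miRNAs were highest in normoxia replicate 1, the library with the lowest total, at 339, 2615 and 232 CPM for miR-9a-5p, miR-128-3p and miR-129-5p. Whether they share a pattern beyond that library was not tested. miR-128-3p had 1.14 counts for each count of miR-9a-5p in hypoxia replicate 1 and 6.76 to 39.9 in the other libraries. For each count of miR-129-5p it had 10.1 to 25.0 in the 5 libraries that listed both.

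A wider list of 28 mature strands of miRNAs known from neurons and glia, the 3 included, was mostly unlisted. Of its members 20 had no count in any library. Among these were both strands of miR-124, the most typical neuronal miRNA, and of miR-137. So were the main strands miR-138-5p, miR-153-3p, miR-219a-5p and miR-338-3p. The 20 also take in miR-9a-3p and the opposite strands of miR-128-3p and miR-129-5p, already given above as unlisted. Only 42 of 187 annotated precursors had both strands listed, so 20 of 28 overstates how many neural miRNAs were missing. Only 4 members passed the filter and 0 were called in either direction (background 0%). The other tested member, miR-7a-5p, known from neurons and pancreatic islets, had 0, 31 and 63 counts in the hypoxia libraries, against 12, 83 and 40 in the normoxia ones. The fitted log2 fold change was -0.57 (SE 1.78, edgeR adjusted p 0.998), and 0.24 (SE 0.96) without hypoxia replicate 1. Like miR-129-5p it had no listed count in that library.

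miR-132-3p, induced by activity in neurons, had 36 counts in hypoxia replicate 1, 6 in normoxia replicate 3 and none elsewhere. Its partner from the same primary transcript, miR-212-5p, had 49 counts in hypoxia replicate 3 and 2 in hypoxia replicate 2, and miR-132-5p had 5, 9 and 2 counts in hypoxia replicates 2 and 3 and normoxia replicate 3. miR-219a-1-3p had 2 counts in normoxia replicate 3. Different libraries were thus high for different members, and hypoxia replicate 1 listed 3 of the 28, miR-9a-5p, miR-128-3p and miR-132-3p. Without the 3 miRNAs the list held 0.0260 to 0.0487% of counts under hypoxia and 0.0112 to 0.0404% under normoxia, with 0.0303% in hypoxia replicate 1.

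**Figure D4:**
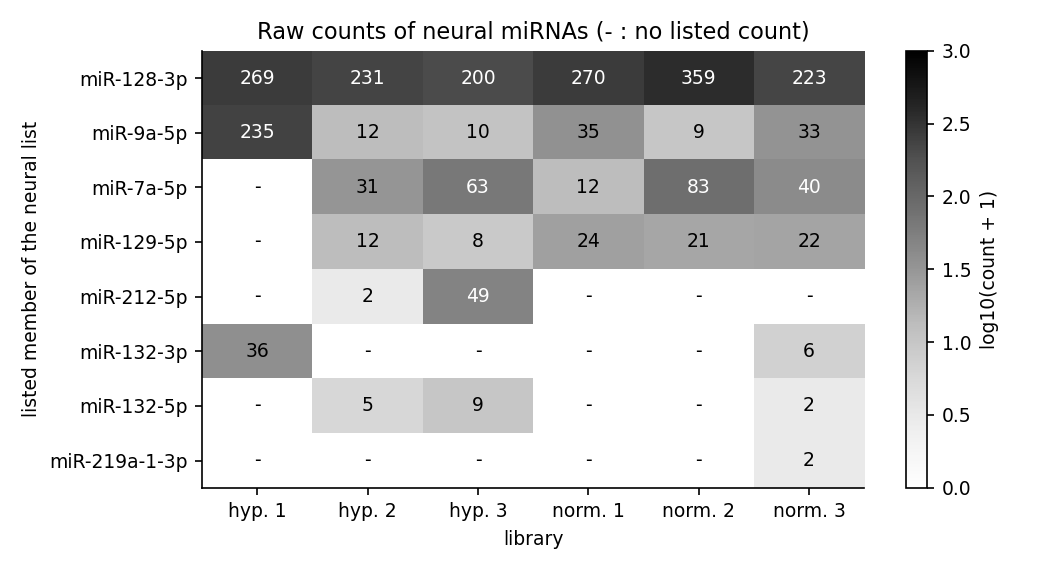
Raw counts (numbers in the cells, grey scale log10 of count + 1) of the 8 listed members of the neural list in the 6 libraries. miR-128-3p was listed everywhere at 200 to 359 counts, and miR-9a-5p at 235 in hypoxia replicate 1 and at 35 or fewer elsewhere. Of the 8, 5 had no listed count in hypoxia replicate 1, which listed only 85 of all 311 sequences.

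The seed of miR-128-3p overlaps that of the miR-27 family, known from fat cell differentiation, shifted by 1 base. Bases 1 to 7 of miR-128-3p equal bases 2 to 8 of miR-27a-3p and miR-27b-3p, the only listed sequences with such a shifted match to any of the 3.
miR-27a-3p: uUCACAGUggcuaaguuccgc
miR-27b-3p: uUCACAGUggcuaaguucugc
miR-27b-3p was the more abundant, with 802, 1153 and 2689 counts in the hypoxia and 588, 2038 and 1146 in the normoxia libraries, above miR-128-3p in every library. miR-27a-3p had 26, 91 and 79 against 43, 143 and 101 counts, below miR-128-3p in every library. Their log2 fold changes were 0.22 (SE 0.40) and -0.46 (SE 1.34), with an edgeR adjusted p of 0.998 each.

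Annotated miRNAs with the most similar pattern over the 6 libraries were named by Pearson's r of log2 CPM, as a description. For miR-9a-5p these were miR-676 (r = 0.96), miR-320-3p (0.92) and miR-22-3p (0.88). miR-676 stood at 211, 45 and 60 counts in hypoxia, against 94, 50 and 141 in normoxia. Without hypoxia replicate 1 the r was 0.98 for miR-676, 0.69 for miR-320-3p and 0.53 for miR-22-3p. For miR-128-3p they were let-7d-3p (0.83), miR-872-5p (0.79) and the liver miRNA miR-122-5p (0.75), and without that library 0.84, 0.78 and 0.75. let-7d-3p stood at 141, 171 and 96 counts in hypoxia, against 117, 312 and 149 in normoxia. For miR-129-5p they were miR-16-5p (0.95), miR-28-3p (0.92) and miR-26a-5p (0.90), and without that library 0.80, 0.67 and 0.54. miR-16-5p and miR-28-3p had no listed count in hypoxia replicate 1 either.

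The annotated miRNAs just above and below each of the 3 in mean level were set beside them. The neighbours of miR-128-3p in mean level, miR-103-3p and miR-146b-5p, had highest over lowest ratios of 3.94 and 3.87, near its own 3.24, and log2 fold changes of -0.09 (SE 0.58) and 0.54 (SE 0.59). Those of miR-9a-5p, miR-378a-3p and miR-125a-5p, had no listed count in hypoxia replicate 1, where miR-9a-5p was highest, and SEs of 1.69 and 1.78. Their closeness to miR-9a-5p in mean level thus rests on that library. The neighbours of miR-129-5p, miR-369-3p and miR-134-5p, were each listed in 3 libraries, against 5 for miR-129-5p, with SEs of 2.40 for both.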

How the data were processed

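Per the file headers the authors deposited raw tag counts per mature miRNA and precursor, and a table of normalized tag counts, whole numbers of unstated method treated here as a score. The tools named by the submitters' processing notes are Novoalign 3.02.12 and cutadapt 1.9.3, beside build rn6, with no role; how counts were made and filtered is not stated. Blank cells were taken as 0. The 353 rows were merged to 311 sequences. Library totals ran from 106954 to 248542 counts, which limits precision for scarce miRNAs.

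The test was edgeR's (4.0.16, with R 4.3.3) after filterByExpr at a count of 10 and a total of 15, with TMM factors, a robust quasi-likelihood fit, Benjamini-Hochberg adjustment over 107 sequences, threshold 0.05. The fit was also run on simulated counts with less spread between libraries than these data, so that run says nothing of its power here. Alternatives used DESeq2 1.42.0, limma 3.58.1, other scalings and filters, a replicate block and each library left out. Correlations used log2 CPM with a prior count of 2.

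The miRNAs, lists and tests were chosen with earlier results of these data known. Named miRNAs are the 3, other strands of their precursors, listed members of the neural list, those with a same or shifted seed, the 3 most alike in pattern, the neighbours in mean level, and miR-21-5p, miR-320-3p, miR-1b and miR-122-5p. miR-181b-5p, miR-127-3p, miR-185-5p and unlisted or other listed markers were named after their values were seen. miR-21-5p took 20.4 to 34.6% of counts. RefSeq sequences and loci are of GRCr8, not rn6.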

Additional observations from a re-analysis of the deposited data

How the results depend on the processing

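No alternative brought any of the 3 miRNAs past an adjusted p of 0.05, with adjusted values from 0.521 to 1.000 for miR-9a-5p, 0.890 to 1.000 for miR-128-3p and 0.875 to 1.000 for miR-129-5p. The count of sequences called was 0 in all fits but limma with a pseudocount of 1 on the table normalized by the authors, where it was 1, an unannotated sequence lower under hypoxia. The log2 fold change of miR-9a-5p was 0.02 with limma-voom and reversed to -1.24 without hypoxia replicate 1, and ran from -1.24 to 2.66 with each library left out. That of miR-128-3p reversed to 0.10 without hypoxia replicate 3 and 0.12 without normoxia replicate 1, and ran from -0.51 to 0.12. That of miR-129-5p ran from -2.97 to -1.03, and it has no value at a mean count of at least 50. With the replicate number as a block the values were 0.52, -0.33 and -2.39. Same-numbered libraries deviated together with correlations of 0.23, 0.03 and 0.12, and not every library correlated best with its own number. With 3 libraries in each group this cannot decide whether the numbers pair them. The block left the count of calls at 0. The shares of counts moved by less than 1 SD under the other denominators. In an alternative chosen after seeing the data, leaving out hypoxia replicate 1 took the mean share under hypoxia from 0.0701% to 0.00612% for miR-9a-5p and from 0.229% to 0.131% for the 3 together. Without normoxia replicate 1 the normoxia mean of miR-9a-5p went from 0.0172% to 0.00945%.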
